A study of Mus musculus with 6 samples.

Results

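The adenosine suppression pathway was followed here through 8 genes, Entpd1, Nt5e, Adora2a, Ada, Slc29a1, Pde3b, Pde4b and Pde4d, listed by name for their roles, with earlier results of these data known, and all 8 had a row among the 13623 in the deposited count table. The study sequenced mRNA of regulatory T cells (Tregs, CD4 T cells that depend on Foxp3 and hold immune responses in check) from mouse liver. Of the 6 libraries, 3 came from mice labelled Altre WT and 3 from mice labelled Altre knockout, which lack a Treg long non-coding RNA, and all mice were 14 months old and untreated. The labels give neither the allele, the strain, the sex, the way the Tregs were isolated, nor whether a library is 1 animal or a pool, so p-values measure only the spread between these samples, and that spread may be technical. The comparison asks whether liver Tregs of ageing mice that lack Altre carry other amounts of the transcripts that make, sense, remove and relay adenosine.

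Extracellular ATP, released by stressed or dying cells, activates immune cells. Tregs carry the ectonucleotidase CD39 (Entpd1), which strips ATP and ADP to AMP, and in mice also CD73 (Nt5e), which turns AMP into adenosine. Adenosine acts on T cells mainly through the receptor encoded by Adora2a, which couples to the stimulatory G protein, raises cyclic AMP and dampens T cell activation. The equilibrative transporter ENT1 (Slc29a1) carries adenosine across the plasma membrane, adenosine deaminase (Ada) turns it into inosine, and phosphodiesterases such as Pde3b, Pde4b and Pde4d end the signal by hydrolysing cyclic AMP. Foxp3 is known to repress Pde3b in mouse Tregs.

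The counts per library summed to between 25240621 and 30776954 over the 13605 genes used. Levels are in CPM, counts brought to a common library total, and means carry an SD over the n = 3 libraries of a genotype. Values of the libraries of a genotype are listed in the order of replicates 1, 2 and 3. The 8 markers of Tregs and CD4 T cells were all present, and their summed level ran from 7470 to 8680 CPM in wild type and from 7710 to 8670 CPM in knockout, most of it from the T cell genes Cd3g, Cd3e, Lat and Cd4. Of those that mark Tregs, Foxp3 averaged 79.2 ± 7.91 and 108 ± 32.5 CPM and Ikzf2 860 ± 139 and 800 ± 150 CPM. Il2ra (305 ± 50 and 434 ± 45.4 CPM) and Cd4 (798 ± 90.2 and 1080 ± 154 CPM) were higher in knockout without overlap but were not called (adjusted p = 0.837 and 0.842, edgeR with Benjamini-Hochberg). Genotypes did not overlap for these 2 of the 8 markers, against 10.3% of all genes tested. Markers of macrophages and Kupffer cells (12 of 13 measured) summed to 194 to 224 CPM in wild type and 236 to 354 CPM in knockout, without overlap. Of the 12, 11 had a higher mean in knockout, and 5 did not overlap singly, against 10.3% of all genes tested. C1qc went the other way, at 20.4 ± 13.3 and 8.81 ± 8.15 CPM. The defining Kupffer cell marker Clec4f was not among the genes analysed here, and Csf1r averaged 15.9 ± 4.99 and 30.8 ± 8.02 CPM. Markers of sinusoidal endothelial cells (3 of 7 measured) summed to 96.1 to 126 and 140 to 158 CPM, nearly all of it from Pecam1, which leukocytes also express, while Stab2 averaged 1.49 ± 0.398 and 2.02 ± 1.17 CPM. B cell markers (6 of 7 measured) summed to 81.1 to 100 and 84.9 to 105 CPM, with Ms4a1 at 1.12 ± 1.01 and 2.55 ± 1.05 CPM. Markers of CD8 T and NK cells (6 of 8 measured) summed to 97.8 to 275 and 126 to 147 CPM. Of 6 neutrophil markers only S100a8 was measured, at most 1.17 CPM in a library, and 0 of 8 hepatocyte markers were among the genes used. Expression of Altre was not analysed here and gives no check of the genotype labels.

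None of the 8 genes passed the test for a difference between genotypes. All 8 passed the filter on low counts, and 0 of 8 were called at an adjusted p of 0.05 (edgeR quasi-likelihood test, Benjamini-Hochberg over all 12789 genes tested), where 0% of all genes were called. At an unadjusted p under 0.05 the count was also 0 of 8, against 5.82% of all genes. DESeq2 called 0 of 8, against 0.339% of all genes, and the authors' deposited table also calls 0 of 8, against 1.81% of its rows. The mean was higher in knockout for 4 genes and lower for 4. The median log2 fold change was -0.04 for the 8 genes and 0.00 for all genes tested, and the median absolute log2 fold change was 0.14 against 0.19. In bulk samples such as these, fewer cells of a type and less RNA per cell cannot be told apart.

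**Figure D1:**
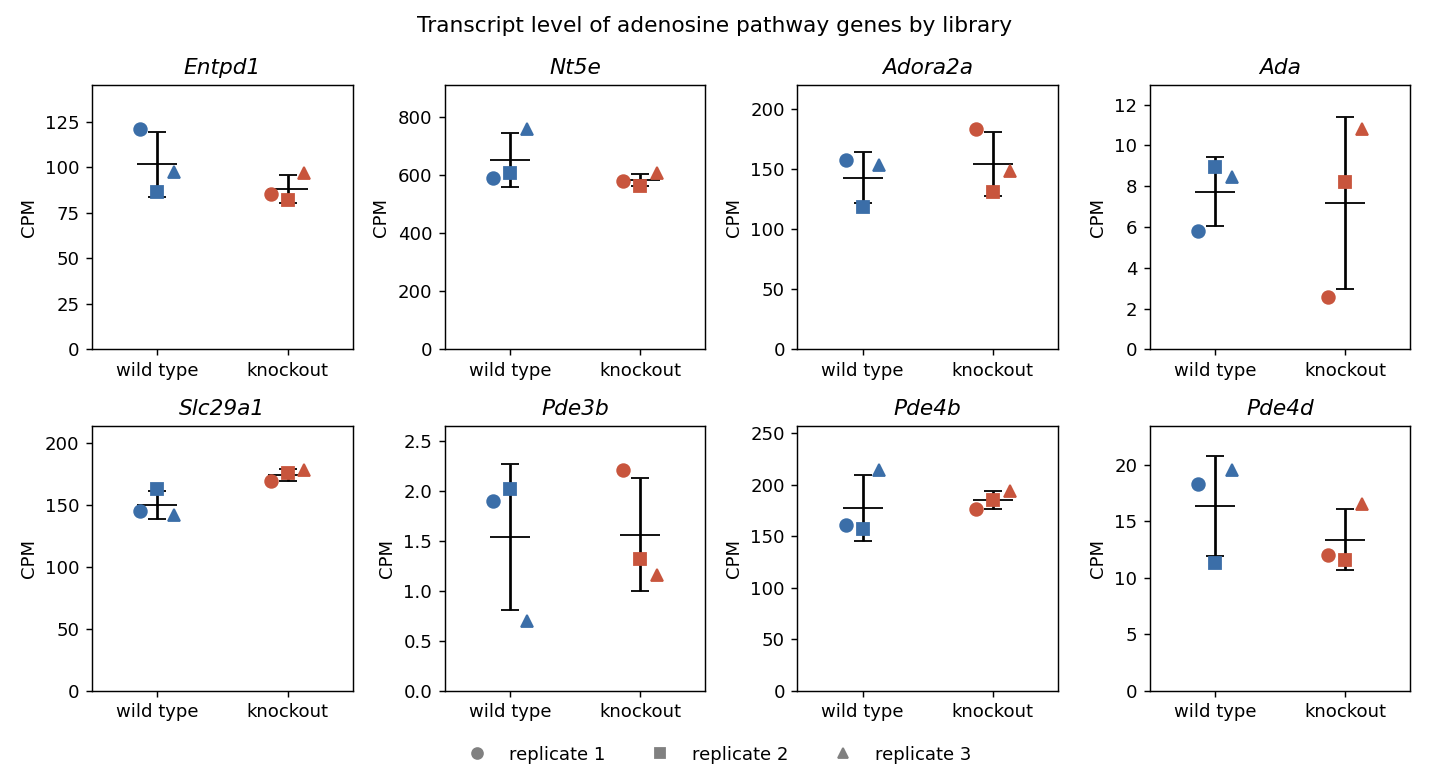
Transcript level in CPM of the 8 genes in each library, from 0 upward, with wild type in blue and knockout in red; symbols mark the replicate number, the horizontal bar is the mean and the error bar the SD (n = 3 per genotype). The genotypes overlap for every gene but Slc29a1, and Ada has its lowest value, 2.56 CPM, in knockout replicate 1.

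The ectonucleotidases that produce adenosine both had a slightly lower mean in knockout, within the spread of the libraries. Entpd1 (chromosome 19, 40612366 to 40741602, build GRCm38, plus strand) had 121, 86.4 and 97.3 CPM in the wild-type libraries and 85.5, 82.0 and 96.6 CPM in the knockout libraries. Wild-type replicate 1 stood highest, and the other 5 libraries lay between 82.0 and 97.3 CPM, so the genotypes overlapped. The means were 102 ± 17.8 and 88.0 ± 7.62 CPM, a fold of 0.87 for knockout over wild type with a 95% interval from 0.68 to 1.10 (log2 fold change -0.21 ± 0.16, SE; adjusted p = 0.943, edgeR quasi-likelihood test with Benjamini-Hochberg). Leaving out wild-type replicate 1 brought the log2 fold change to -0.06. Macrophages, B cells and endothelial cells also express Entpd1; the summed macrophage markers were higher in knockout (236 to 354 against 194 to 224 CPM) while the Entpd1 mean was lower, and their part in its level was not tested.

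Nt5e (chromosome 9, 88327197 to 88372092, plus strand) had 592, 609 and 760 CPM in the wild-type libraries and 580, 565 and 608 CPM in the knockout libraries. Only wild-type replicate 3 stood apart, and knockout replicate 3 lay between wild-type replicates 1 and 2. The means were 654 ± 92.5 and 584 ± 21.8 CPM, a fold of 0.89 with a 95% interval from 0.74 to 1.08 (adjusted p = 0.938, edgeR with Benjamini-Hochberg). Without wild-type replicate 3 the log2 fold change was -0.05, against -0.16 with all libraries. The same library had the highest sum of CD8 T and NK cell markers, 275 CPM against 97.8 to 147 CPM in the other 5. Nkg7 made up most of that sum at 238 CPM, and no other measured marker of the list was highest there. Klrb1c was at its lowest in this library, 0.406 CPM, and Cd8b1 had 16 CPM against 22.1 CPM in knockout replicate 1. The part of these markers in the Nt5e level was not tested.

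The 2 enzymes act in sequence, so their balance was also compared within each library. The ratio of Nt5e to Entpd1, each per kilobase of annotated exon, was 3.17, 4.57 and 5.07 in the wild-type libraries and 4.40, 4.47 and 4.08 in the knockout libraries. The knockout libraries lay within the range of the wild-type ones, with means of 4.27 ± 0.987 in wild type and 4.32 ± 0.206 in knockout (p = 1, two-sided exact permutation test of the log2 ratio, n = 3 per genotype). With 3 libraries against 3 the smallest p such a test allows is 0.1, above the threshold for a call. In all 3 ratios were tested, and for each of them the test could not have called a difference. The size of the ratio rests on the lengths used, and only its difference between libraries is free of them.

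The adenosine receptor transcript was present at a high level in both genotypes. Adora2a (chromosome 10, 75316877 to 75334784, plus strand) had 157, 118 and 153 CPM in the wild-type libraries and 183, 131 and 148 CPM in the knockout libraries. The lowest and the highest library belonged to different genotypes, but 2 of the knockout libraries lay within the wild-type range. Means were 143 ± 21.4 and 154 ± 26.5 CPM, a fold of 1.08 with a 95% interval from 0.84 to 1.39 (adjusted p = 0.987, edgeR with Benjamini-Hochberg). The direction rested on single libraries, since the log2 fold change of 0.11 was -0.02 when wild-type replicate 2 was left out and -0.03 when knockout replicate 1 was left out. The other adenosine receptor genes, Adora1, Adora2b and Adora3, were not analysed here.

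Of the genes that move and remove adenosine, Slc29a1 was the 1 gene of the 8 whose genotypes did not overlap, where 10.3% of all genes tested did not overlap. Slc29a1 (chromosome 17, 45585200 to 45599606, minus strand) had 145, 163 and 142 CPM in the wild-type libraries and 169, 176 and 178 CPM in the knockout libraries. Every knockout library lay above every wild-type library. Means were 150 ± 11 and 174 ± 4.29 CPM, a fold of 1.16 (95% interval 0.97 to 1.38), but the gene did not pass (unadjusted p = 0.0870, adjusted p = 0.894, edgeR with Benjamini-Hochberg). The authors' deposited table gives a log2 fold change of 0.21 with a standard error of 0.12 and an adjusted p-value of 0.594. An antisense gene, Gm17080, shares 275 exonic bases with Slc29a1 on the opposite strand. If counting ignored strand, reads from these bases could not be assigned by strand, and what this did to the Slc29a1 count was not tested.

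Ada (chromosome 2, 163726584 to 163750239, minus strand) was lower and far more variable. It had 5.79, 8.95 and 8.46 CPM in the wild-type libraries and 2.56, 8.21 and 10.8 CPM in the knockout libraries. Knockout held both the lowest and the highest library, at counts of 65 and 334. Its SD in knockout, 4.20 CPM around a mean of 7.18 CPM, was well above the 0.516 CPM that counting error alone would give. Against 7.73 ± 1.70 CPM in wild type the fold was 0.93 with a 95% interval from 0.45 to 1.91 (adjusted p = 1.00, edgeR with Benjamini-Hochberg). Knockout replicate 1 decided the direction, as the log2 fold change went from -0.10 to 0.30 without it, and without wild-type replicate 2 it was 0.01. The size also depended on the model. With all 6 libraries it was -0.26 by limma-voom, and -0.30 by edgeR with the replicate number as a block and in the authors' deposited table. The ratio of Nt5e, which makes adenosine, to Ada, per kilobase, was 23.8, 15.8 and 20.9 in the wild-type libraries and 52.7, 16 and 13.2 in the knockout libraries. Knockout again held both extremes (p = 0.9, adjusted p = 1 over the 3 ratios, two-sided exact permutation test, n = 3 per genotype).

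The 3 phosphodiesterases that end cyclic AMP signals covered a wide range of levels and 0 of the 3 passed. Pde4b (chromosome 4, 102087543 to 102607259, plus strand) had 161, 157 and 214 CPM in the wild-type libraries and 176, 185 and 194 CPM in the knockout libraries. The knockout libraries fell between the wild-type ones. Means were 177 ± 31.8 and 185 ± 8.72 CPM, a fold of 1.04 with a 95% interval from 0.84 to 1.30 (adjusted p = 0.996, edgeR with Benjamini-Hochberg). The sign of this difference turned without wild-type replicate 2, where the log2 fold change was -0.03, and without wild-type replicate 1.

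Pde4d (chromosome 13, 108449948 to 109953461, plus strand), a close relative of Pde4b, had 18.3, 11.3 and 19.5 CPM in the wild-type libraries and 12, 11.6 and 16.5 CPM in the knockout libraries. Wild-type replicate 2 was the lowest of all 6 libraries, so the genotypes overlapped although the mean was lower in knockout. The means of 16.4 ± 4.43 and 13.4 ± 2.71 CPM gave a fold of 0.82 with a 95% interval from 0.54 to 1.25 (adjusted p = 0.975, edgeR with Benjamini-Hochberg). Its log2 fold change of -0.29 was -0.51 when wild-type replicate 2 was left out and -0.16 when wild-type replicate 3 was left out. The ratio of Pde4b to Pde4d per kilobase was 9.98, 15.8 and 12.5 in the wild-type libraries and 16.7, 18.1 and 13.4 in the knockout libraries. Those ranges overlapped (p = 0.2, adjusted p = 0.6 over the 3 ratios, two-sided exact permutation test, n = 3 per genotype). The smallest p this test allows is 0.1, above the threshold for a call, so it could not decide whether the ratio differed.

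Pde3b (chromosome 7, 114415281 to 114539251, plus strand), the Foxp3-repressed member, was close to the lower end of what the libraries could measure. Its counts were 55, 51 and 19 in the wild-type libraries and 56, 33 and 36 in the knockout libraries. These correspond to 1.54 ± 0.728 and 1.56 ± 0.566 CPM, where counting error alone would give an SD of 0.239 and 0.241 CPM. The fold was 1.01 with a 95% interval from 0.35 to 2.90 (adjusted p = 1.00, edgeR with Benjamini-Hochberg), an interval that holds a change of 2-fold in either direction. Leaving out wild-type replicate 3 or knockout replicate 1 turned the log2 fold change of 0.02 to -0.34 or -0.31.

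**Figure D2:**
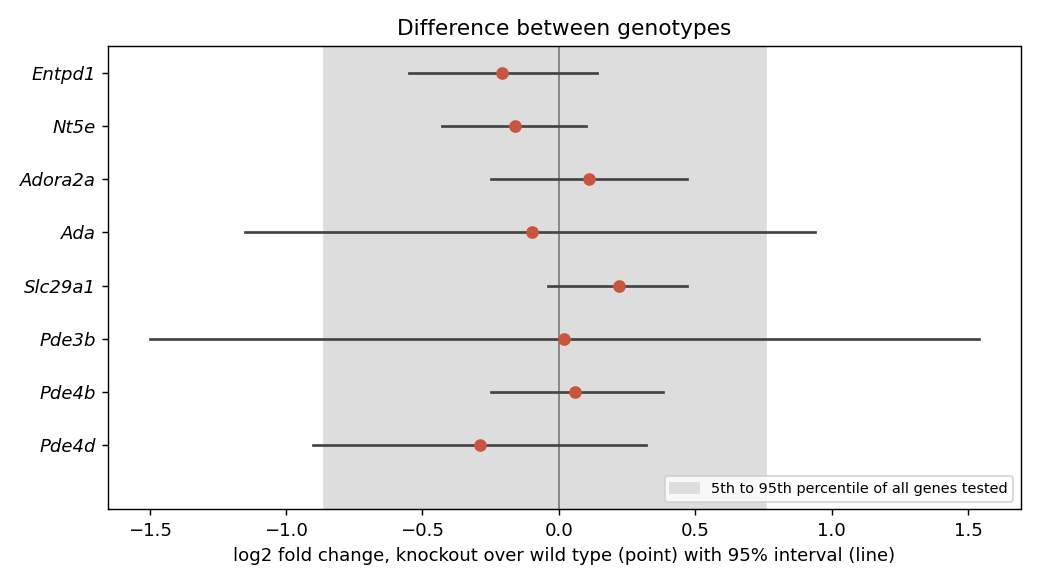
Log2 fold change of knockout over wild type for the 8 genes (points) with the 95% interval of each (lines); the grey band spans the 5th to the 95th percentile of all 12789 genes tested, from -0.86 to 0.76. Every interval includes 0, the narrowest belong to Nt5e and Slc29a1, and the widest to Ada and Pde3b.

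The 8 genes differed in level by far more than any of them differed between genotypes. Levels of different genes were compared per kilobase of annotated exon, as CPM per kb over all 6 libraries. Nt5e came highest, averaging 72.0 CPM per kb (65.7 to 88.3), at the 93.6th percentile of the 13446 genes with a length. Adora2a at 48.5 CPM per kb (38.6 to 59.8) and Slc29a1 at 40.5 CPM per kb (35.5 to 44.3) followed, and their ranges overlapped. Pde4b at 17.2 CPM per kb (14.9 to 20.3) and Entpd1 at 17.0 CPM per kb (14.7 to 21.7) could not be separated. Ada averaged 3.72 CPM per kb (1.28 to 5.37), near the median of all genes (3.85), with a range that overlapped that of Pde4d at 1.24 CPM per kb (0.940 to 1.62) through 1 library. Pde3b was lowest at 0.170 CPM per kb (0.0770 to 0.242), at the 8.01st percentile. With the longest coding transcript as the length, a choice made after the data were seen, Slc29a1 came above Adora2a (73.2 and 57.2 CPM per kb), and Pde4b at 42.1 CPM per kb stood above Entpd1 at 22.5. The other places in the order did not change.

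**Figure D3:**
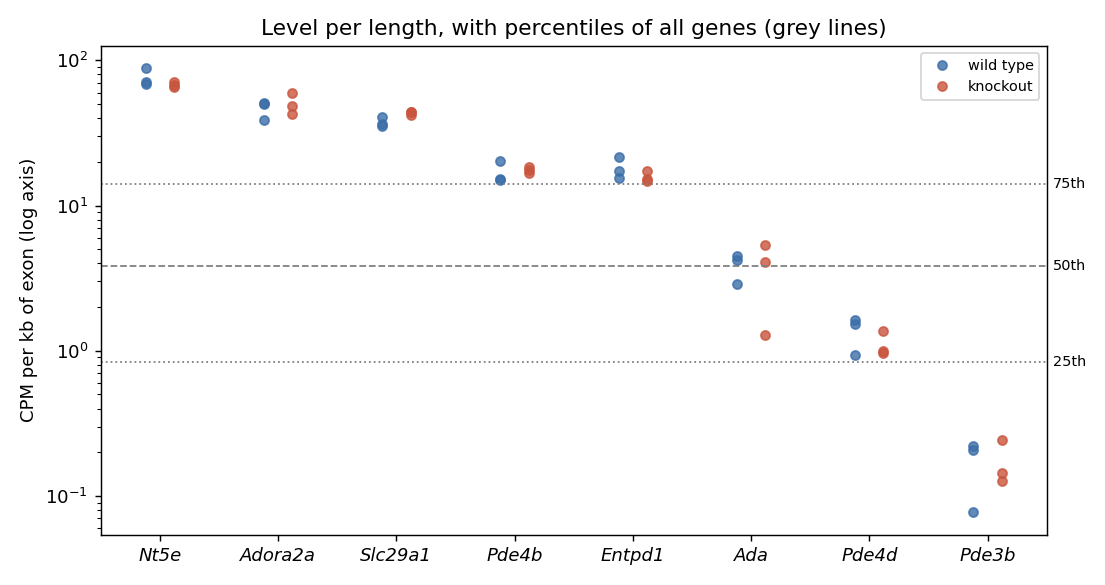
CPM per kb of annotated exon (log axis) of the 8 genes in each library, wild type in blue and knockout in red, ordered by mean; grey lines mark the 25th, 50th and 75th percentile of all genes with a length. The adenosine-producing enzyme Nt5e, the receptor Adora2a and the transporter Slc29a1 lie highest, and Pde3b lies below the 25th percentile (0.831) in every library.

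The 8 genes did not vary alike between libraries of a genotype. The biological coefficient of variation fitted by edgeR was below the median of all genes tested (0.238) for 5 of 8, from 0.122 for Slc29a1 to 0.157 for Adora2a. For Pde4d it was 0.259, for Ada 0.413 and for Pde3b 0.572, the 3 genes with the lowest counts. By the root mean square difference of centred log2 CPM over the 6 libraries, among 8071 other genes averaging at least 10 CPM, the patterns nearest to that of Entpd1 were those of Tmem159 (0.0428), Plin3 (0.0461), which encodes a lipid droplet coat protein, Rere (0.0554), Luc7l2 (0.0562) and Lnpk (0.0567). Near to Nt5e in the same measure were Ctbp1 (0.0382), a transcriptional corepressor, Mif4gd (0.0410), Fuca2 (0.0414) and Tnfaip1 (0.0451). Over so few libraries and so many genes, such nearness is a description only.

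The promoters of the 8 genes were searched for the cyclic AMP response element, the DNA site of CREB, through which cyclic AMP reaches transcription. RefSeq promoter windows on GRCm38.p6, from 250 bases before to 50 bases after an annotated start, were at hand for 6 of the 8 genes, 17 windows in all, with none for Adora2a and Pde3b. The full palindrome TGACGTCA occurred in 0 of the 17 windows, against 1.79% of all 32851 windows. Its core TGACG, read on either strand and also contained in the palindrome, occurred in 4 of the 17 windows, against 20.8% of all windows, and in 3 of the 6 genes, against 23.0% of all genes with a window. The forkhead motif TGTTTAC, of the kind bound by Foxp3 and its relatives, occurred on either strand in 0 of the 17 windows, against 3.65% of all windows. The 4 matches are shown because CREB is the factor that cyclic AMP activates; capitals mark the core, and each is written on the strand of the gene. Entpd1 had 1 in each of its 2 windows, Pde4b 1 in 4 windows and Slc29a1 1 in 8 windows.
Entpd1, upstream start, chr19:40612220-40612246, plus strand: gtcgcgtacttCGTCAtcagcttccgt
Entpd1, downstream start, chr19:40659576-40659602, plus strand: aacacatactaCGTCAagcctagaaaa
Pde4b, chr4:102421510-102421536, plus strand: atttggctgcaCGTCAattttctcatc
Slc29a1, chr17:45593695-45593721, minus strand: gtgaccagctgTGACGcctgtctgggt
The core began 135 and 183 bases before the start in the Entpd1 windows, 34 bases before it in the Pde4b window and 61 bases before it in the Slc29a1 window. These shares rest on 6 genes with 1 to 8 windows each, and a match describes the letters only.

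Beyond the 8 genes, 6 lists of other genes of the pathway were examined, 75 genes tested in all. In knockout 33 had a higher and 42 a lower mean, their median log2 fold change was -0.01, and 0 of 75 were called by edgeR, DESeq2 or limma-voom with genotype as the term (Benjamini-Hochberg). An unadjusted p under 0.05 was reached by 6 of 75 (8%), 2 higher in knockout and 4 lower, against 2.72% and 3.10% of all genes tested. These are given without a call, and their adjusted p-values by edgeR were 0.837 or more. Genotypes did not overlap for 6 of the 75 genes, against 10.3% of all genes tested. The authors' deposited table calls 1 of the 78 it lists, Rap1a, against 1.81% of all its rows.

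Among the 10 other genes of extracellular nucleotide breakdown and ATP release, 4 were higher and 6 lower (median log2 fold change -0.16), with 0 at an unadjusted p under 0.05. The smallest p belonged to Panx1, the pannexin channel that releases ATP, with 116, 64.4 and 38.1 CPM in the wild-type libraries and 53.5, 36.2 and 40.2 CPM in the knockout libraries (unadjusted p = 0.0519, adjusted p = 0.859, edgeR with Benjamini-Hochberg). Wild-type replicate 1 stood highest and the other libraries overlapped. Among the 5 other purine receptors tested, 4 were higher and 1 lower (median log2 fold change 0.14), and the smallest unadjusted p was 0.233, for P2ry14, a receptor for UDP-sugars, at 2.32 ± 1.24 and 3.74 ± 0.489 CPM. Among 19 genes of adenosine transport and purine metabolism, 11 were higher and 8 lower (median log2 fold change 0.08). Slc29a2, the related transporter ENT2, had the smallest p there (unadjusted p = 0.102) at 2.78 ± 1.15 and 1.29 ± 0.484 CPM, the opposite direction to Slc29a1, with overlapping genotypes.

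Among 10 genes of G proteins, cyclases and cyclic AMP-raising receptors, 3 were higher and 7 lower (median log2 fold change -0.03). An unadjusted p under 0.05 was reached by 1 of the 10, higher in knockout, and 0 were called (edgeR with Benjamini-Hochberg). Of 9 other cyclic nucleotide phosphodiesterase genes, 3 were higher and 6 lower (median log2 fold change -0.12). Pde6d, a prenyl-binding protein that carries a phosphodiesterase name but does not hydrolyse cyclic nucleotides, averaged 76.7 ± 5.40 and 56.3 ± 6.91 CPM (unadjusted p = 0.0126, adjusted p = 0.842). Pde2a, which hydrolyses both cyclic AMP and cyclic GMP, averaged 0.682 ± 0.143 and 2.04 ± 0.490 CPM (unadjusted p = 0.0399, adjusted p = 0.845). Its level was low, at most 2.38 CPM in a library. Neither Pde6d nor Pde2a overlapped between genotypes, which held for 2 of the 9 genes, against 10.3% of all genes tested. Pde2a is also expressed outside T cells. Summed macrophage markers were higher in knockout too, and their part in the Pde2a level was not tested.

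Among 22 genes of protein kinase A, EPAC and CREB, 8 were higher and 14 lower (median log2 fold change -0.12). The 3 with an unadjusted p under 0.05 were all lower in knockout. Their genotypes did not overlap, which held for 3 of the 22 genes, against 10.3% of all genes tested. Akap10, an anchoring protein of protein kinase A, had 56.6, 52.9 and 54.3 CPM in the wild-type libraries and 44.1, 32.6 and 34.1 CPM in the knockout libraries (log2 fold change -0.57 ± 0.17, SE; unadjusted p = 0.00685, adjusted p = 0.837, edgeR with Benjamini-Hochberg). Akap9, another anchoring protein, averaged 132 ± 6.70 and 106 ± 2.36 CPM (unadjusted p = 0.0190). Rap1a, a small GTPase switched on by the cyclic AMP sensor EPAC, averaged 164 ± 31.0 and 116 ± 21.1 CPM (unadjusted p = 0.0179, adjusted p = 0.842, edgeR with Benjamini-Hochberg). Its closest libraries were wild-type replicate 3 at 141 CPM and knockout replicate 1 at 140 CPM. In the authors' deposited table Rap1a has a log2 fold change of -0.50 with a standard error of 0.12 and an adjusted p-value of 0.00598. The call depends on both the method and the replicate number as a block. DESeq2 gave an adjusted p of 0.364 with genotype alone and 0.00618 with the block, at a log2 fold change of -0.50 in both. By edgeR with the same block, 0 of the pathway genes were called.

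**Figure D4:**
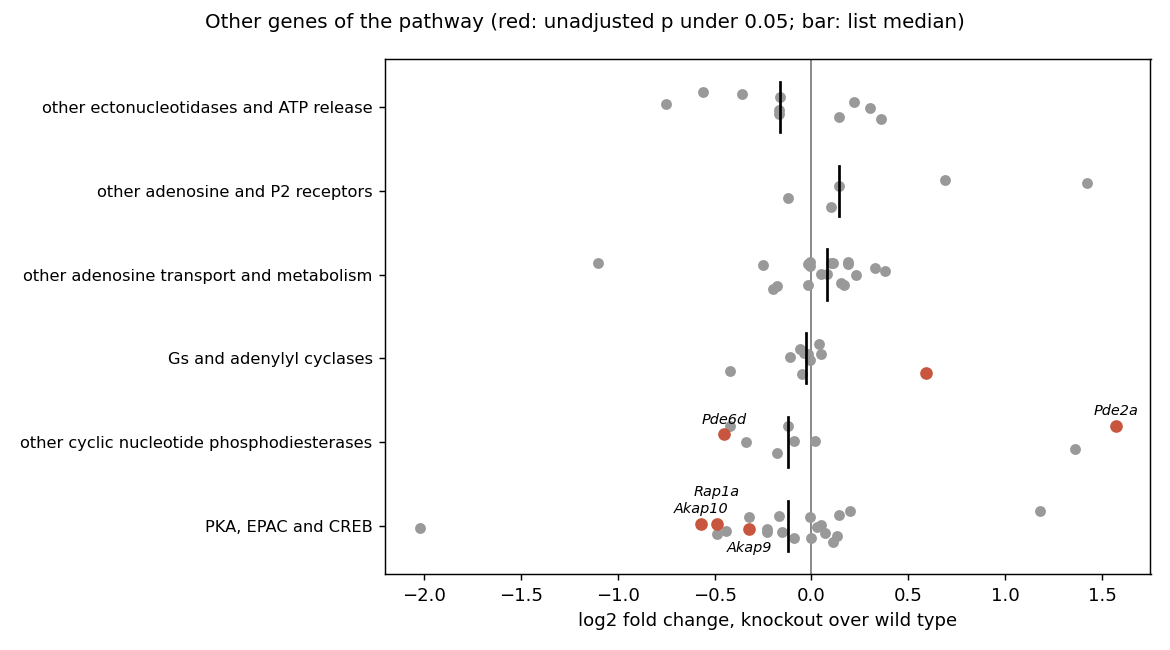
Log2 fold change of knockout over wild type for the 75 other pathway genes tested, 1 point per gene in 6 lists, spread vertically only for legibility; red points, all but 1 named, have an unadjusted p under 0.05 and the black bar is the median of a list. The medians lie between -0.16 and 0.14, and 0 of the 75 genes passed the adjusted threshold.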

How the data were processed

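The authors deposited 1 table of raw read counts per gene for 6 libraries, taken as raw because the values are whole numbers with different totals. Build mm10 and the tools STAR, cutadapt and DESeq2 are named in the submitters' processing notes; how reads were counted, and whether by strand, is not given in the sources used here. Libraries were made with a SMARTer mRNA kit, per the labels' protocols. Further deposited columns are, per the file headers, a mean normalized count (signal), the log2 fold change and standard error, a test score and p-values; the deposited fold changes are printed with knockout as numerator. The 18 rows whose gene name had turned into a date (0.2945% to 0.3078% of counts) were left out.

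The test was edgeR's quasi-likelihood F test (edgeR 4.0.16, R 4.3.3; TMM, filterByExpr; genotype alone), with Benjamini-Hochberg adjustment over the 12789 genes left, at a threshold of 0.05. The edgeR script was also run on counts simulated from these data with known changes, as a check of the code. Intervals are 95% intervals from the fold change and its F statistic. Positions, overlaps and exon lengths came from GENCODE M21 on GRCm38, the assembly of mm10; promoters came from RefSeq on GRCm38.p6. Between libraries of 1 genotype, chi-square per gene was 38.5 to 69.5, above sampling noise, so none was treated as a repeat of another. Alternatives were DESeq2 1.42.0, limma-voom (limma 3.58.1), RLE size factors, no filter, the replicate number as a block, and leaving out each library. The genes and lists were chosen with earlier results of these data known. Genes named are the 8, the members of each list with an unadjusted p under 0.05 or else the 1 with the smallest p, and the 5 nearest in pattern to Entpd1 and to Nt5e, of which 2 genes are not reported here (log2 CPM with a prior count of 2). Counting error is Poisson error at the mean count.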

Additional observations from a re-analysis of the deposited data

How the results depend on the processing

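Of the 8 genes, 0 were called under each of the 12 alternatives, and 0 reached an unadjusted p under 0.05. Entpd1, Nt5e, Slc29a1 and Pde4d kept their direction in all 12, though over the alternatives that leave out 1 library their log2 fold changes ran from -0.32 to -0.06, from -0.23 to -0.05, from 0.17 to 0.27 and from -0.51 to -0.16. Over the same alternatives it ran from -0.03 to 0.20 for Adora2a, from -0.52 to 0.30 for Ada, from -0.34 to 0.24 for Pde3b and from -0.03 to 0.21 for Pde4b, and it turned in 2 of them for each. The number of genes called among all tested was 0 by edgeR and limma-voom, 46 by DESeq2 with genotype only, and 0 to 1 when leaving out 1 library. The count of the 75 other pathway genes with an unadjusted p under 0.05 was 6, and 2 to 10 when leaving out 1 library, being 10 when wild-type replicate 3 and 2 when knockout replicate 3 was left out; the cause was not tested. With a block for the replicate number, 16 genes were called by edgeR, 0 of them pathway genes, and 247 by DESeq2. The pathway count by DESeq2 was then 10, and it called 1 of the pathway genes, Rap1a, as does the authors' deposited table. That table shares 244 of its 247 calls with the blocked DESeq2 fit and 45 with the 46 of the fit without the block. The block changed no call among the 8 genes. The deviations of same-numbered libraries correlated at 0.108, 0.0823 and 0.0239, while the largest correlation between different numbers was 0.00448. Each of the 6 libraries thus correlated best with its own number. The labels do not say that the numbers pair the libraries, so the main test used genotype alone. Whether the libraries are paired was not settled. With at most 3 libraries per genotype the intervals of Ada and Pde3b, the least counted with Pde4d, remain wide.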
